A study of Rattus norvegicus with 31 samples.

Results

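Of 31 arrays of rat blood cell RNA, the 10 with the highest and the 10 with the lowest signal for 4 granulocyte genes are compared here, and are called rich and poor arrays. The arrays were chosen by a score measured on them: the mean log ratio, as deposited, over S100a8, S100a9, Hp and Il1r2, each gene's probes being averaged first. The other 11 arrays lay between the sets. The samples are peripheral blood mononuclear cells, the blood fraction of lymphocytes and monocytes, and the score is a level of RNA and not a count of cells. In such bulk samples, fewer cells of a type and less RNA per cell cannot be told apart.

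The series asked what caloric restriction of pregnant rats, and leptin given to their suckling pups, leaves in the blood cells of the adult offspring. Of 16 mated rats, some dams received 20% less food on days 1 to 12 of pregnancy, and their offspring were suckled without (CR) or with (CR-L) leptin, a hormone of fat tissue. The pups received leptin every day up to postnatal day 21; the dose grew from 1.0 to 43.8 ng and averaged 5 times what milk supplies. The offspring of unrestricted dams are titled WT, and all animals ate chow freely for 4 months before the blood was drawn. There are 7 WT, 11 CR and 13 CR-L samples from at most 16 litters, and which samples are littermates, and their sex, are not in the labels. Littermates are not independent, so p-values over samples may be too small. Each array carried 1 sample in red (Cy5) and a reference pool in green (Cy3), with no dye swap. The pool was made from 5 random samples of each group, so some samples are also part of their own reference. Values are log2 ratios of sample over pool unless another scale is named.

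Neutrophils are short-lived granulocytes that carry ready-made antimicrobial proteins in granules, and most of the messages for these proteins are made while the cells mature in the bone marrow. Density separation of blood is meant to leave them behind with the red cells, but some, mainly light or immature ones, stay with the mononuclear cells. S100a8 and S100a9 encode the partner chains of calprotectin, the main protein of the neutrophil cytosol. Il1r2 encodes a decoy receptor that binds interleukin-1 without signalling, and Hp encodes haptoglobin, which binds free haemoglobin and is also stored in neutrophil granules.

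The 6 probes behind the score are shown because they alone decided which arrays were compared. Positions are those of the array files, on the rat build rn4. The S100a8 probes A_44_P1055780 (chr2:182962328-182962387) and A_44_P674708 (chr2:182962043-182962102) are listed in opposite orders along the chromosome, and A_44_P674704 is listed as unmapped. The S100a9 probe lies at chr2:182987647-182987706, the Hp probe at chr19:39443329-39443388, and the Il1r2 probe is listed over chr9:39316654-39319494, a stretch longer than the probe itself.
S100a8 A_44_P1055780: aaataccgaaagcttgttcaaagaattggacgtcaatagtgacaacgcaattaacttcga
S100a8 A_44_P674708: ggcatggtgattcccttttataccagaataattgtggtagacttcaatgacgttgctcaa
S100a8 A_44_P674704: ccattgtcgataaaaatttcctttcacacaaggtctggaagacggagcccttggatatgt
S100a9 A_44_P353618: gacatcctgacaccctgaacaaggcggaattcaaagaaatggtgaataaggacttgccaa
Hp A_44_P388673: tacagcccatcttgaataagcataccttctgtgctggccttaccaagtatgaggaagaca
Il1r2 A_42_P820657: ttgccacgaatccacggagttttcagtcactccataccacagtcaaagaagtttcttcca
Over the 31 arrays, all 3 S100a8 probes followed the S100a9 probe, with correlations of 0.990, 0.935 and 0.961 in the order printed. No spot of the 6 probes was saturated. The Il1r2 probe was well above background on 25 of 31 arrays and the S100a8 probe A_44_P674708 on 27, so the lowest values of both are close to the background.

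The score lay between 0.44 and 1.86 on the rich arrays, with a median of 0.77, and between -2.10 and -0.95 on the poor arrays, with a median of -1.41. The lowest rich array (WT replicate 6, 0.44) was 0.22 above the next one (CR-L replicate 3, 0.22), and the highest poor array (WT replicate 5, -0.95) was 0.14 below the next one (CR-L replicate 13, -0.81). Of the 4 genes, 3 carried the score. S100a9 lay between 0.48 and 2.62 on the rich arrays and between -2.84 and -1.31 on the poor ones. S100a8 lay between 0.02 and 2.38 against -2.26 to -1.03, and Il1r2 between 0.68 and 2.28 against -3.24 to -1.25. Hp varied far less, from -0.06 to 0.38 on the rich and from -0.77 to 0.21 on the poor arrays, and these ranges overlapped. Over all arrays S100a8 and S100a9 had a correlation of 0.975, Il1r2 of 0.869 and 0.906 with them, and Hp of 0.603 and 0.594. These values chose the arrays and are given as a description.

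**Figure D1:**
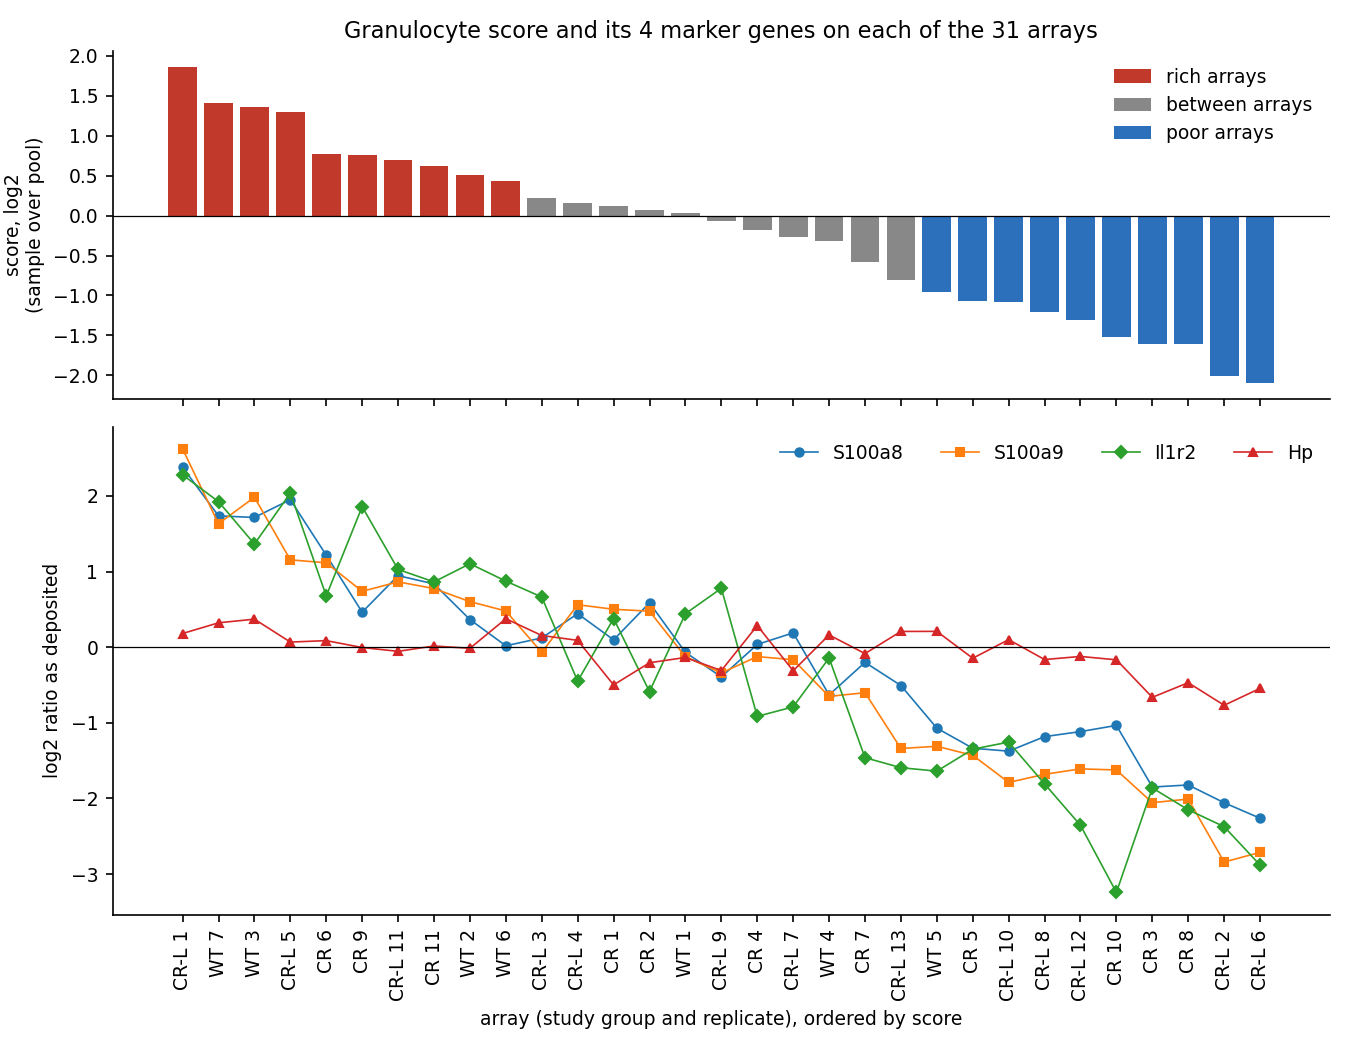
The granulocyte score (upper panel, log2 ratio of sample over pool) and its 4 genes (lower panel, deposited log ratios as log2) on each of the 31 arrays, ordered by score and coloured by set. S100a8, S100a9 and Il1r2 span several log2 units from left to right, while Hp stays between -0.77 and 0.38.

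Rich and poor arrays were spread over the study groups and slides. Of the WT arrays, 4 were rich, 2 between and 1 poor. Of the CR arrays 3, 4 and 4, and of the CR-L arrays 3, 5 and 5, fell into these sets. The mean score was 0.35 ± 0.86 (SD, n = 7) in WT, -0.38 ± 0.95 (SD, n = 11) in CR and -0.35 ± 1.21 (SD, n = 13) in CR-L. The groups differed by less than their spread, and group membership held 8.35% of the sum of squares of the score. Slides held 18.2%, and 6 of the 8 slides carried arrays of both sets. WT replicate 6 stood apart in signal. Its median red intensity was 235 and 83.6% of its spots were well above background. On the other rich arrays the highest median red intensity was 93.9, and on the poor arrays the range was 69.8 to 91.8. No pair of arrays had a correlation above 0.784 over probes.

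After the 4 marker genes were left out, 22379 features (1 probe per gene symbol, or a probe without a symbol) were compared between the sets. Because the arrays were split by a readout of these same arrays, the comparison has no test. It is given as a difference of means ± SE (n = 10 and 10), as the ranges of both sets and as the share of the 100 pairs of a rich and a poor array that are in one order. Of all features, 17 (0.0760%) were at least 2-fold higher on the rich arrays and 0 (0%) at least 2-fold lower. In 4 features (0.0179%) every rich array was above every poor array, and in 0 the reverse held. A further measure, at least 90 of 100 pairs in order, took 52 features as higher and 35 as lower. The 17 were not all granulocyte genes. They held Stfa2l3, a stefin probe without a symbol, Camp, Pglyrp1 and Padi4, the red cell genes Hbb-b1, Hbb, Hba-a3, Alas2 and Slc4a1 (1.03 to 1.33), and the interferon-induced genes Ifit1bl (1.30 ± 0.38) and Rsad2 (1.03 ± 0.55). Slc27a2, RT1-Bb, Cxcl2, Il1b and Nrtn (1.00 ± 0.46) were the others. Every red cell and interferon gene among them overlapped between the sets, with 73 to 84 pairs in order. The listed interferon response genes did not share a direction. Of 17 measured 7 were higher, with a median of -0.03, where 46.8% of all features were higher. The median difference over all features was -0.01.

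The largest difference of means without overlap was in Stfa2l3, a stefin A family gene, whose proteins inhibit cathepsin-type cysteine proteases. Its log2 ratio was between -0.10 and 2.64 on the rich arrays (median 0.89) and between -1.37 and -0.13 on the poor arrays (median -1.23). The difference was 2.12 ± 0.31. The highest poor value belonged to CR-L replicate 12, and the other 9 poor arrays lay between -1.37 and -1.06. On the scanner's own log ratios the same difference was 4.24.

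Another feature without overlap was a probe without a symbol, A_44_P251086, described on the array as stefin-3-like. It lies at chr11:66423354-66423413, in the stefin A gene cluster, between the Stfa2l3 probe (chr11:66324700-66324759) and the Csta probes, of which the brighter lies at chr11:66467180-66467239. Sequences of 3 stefin probes are shown because 2 of the 4 features without overlap come from this cluster. Capitals mark the 47 bases, of 52 that can be aligned without gaps, which the unnamed probe shares with that of Stfa2l1.
A_44_P251086: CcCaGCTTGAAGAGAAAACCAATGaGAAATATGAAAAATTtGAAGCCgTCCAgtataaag
Stfa2l1 A_44_P372388: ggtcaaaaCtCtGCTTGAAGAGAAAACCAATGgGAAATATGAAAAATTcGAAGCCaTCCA
Stfa2l3 A_44_P161882: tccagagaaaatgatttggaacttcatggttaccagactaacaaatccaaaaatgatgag
The Stfa2l3 probe was well above background on 28 of 31 arrays and the unnamed probe on 21. The unnamed probe had ratios between 0.01 and 2.08 on the rich and between -0.78 and -0.03 on the poor arrays, a difference of 1.39 ± 0.21. The Stfa2l1 probe, which differs from it at few bases, was well above background on 2 arrays only and differed by 0.04 ± 0.06. The Csta3 probe, which shares 43 of 47 aligned bases with the unnamed probe, was well above background on 7 arrays. It differed by 0.13 ± 0.06 with 71 of 100 pairs in order. The 2 Stfa3 probes, well above background on 2 and 3 arrays, differed by -0.08 ± 0.05 and 0.22 ± 0.10. Csta, stefin A itself, was between -0.12 and 1.61 on the rich and between -0.73 and -0.04 on the poor arrays. Its difference was 0.87 ± 0.18, with 99 of 100 pairs in order, and it was well above background on all 10 rich but on 4 poor arrays. A second Csta probe was well above background on 2 of 31 arrays and differed by -0.06 ± 0.07. Over all arrays the Stfa2l3 probe had a correlation of 0.964 with the unnamed probe and of 0.964 with the brighter Csta probe. Near-identical copies can share a probe's signal, so the single gene behind each of these values is uncertain. These probes were put together after their values were seen.

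Among granule and antimicrobial genes, Pglyrp1 also had no overlap. It encodes a peptidoglycan recognition protein of neutrophil granules that binds bacterial cell walls. Its log2 ratio was between 0.06 and 1.58 on the rich arrays (median 0.39) and between -0.54 and -0.04 on the poor arrays (median -0.41), a difference of 1.03 ± 0.18. Camp, the cathelicidin precursor of specific granules, had the largest difference of the granule genes, 1.39 ± 0.25. It lay between -0.59 and 1.21 (median 0.28) on the rich and between -1.80 and -0.31 (median -0.93) on the poor arrays. Its sets overlapped, with 98 of 100 pairs in order.

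Lcn2, lipocalin 2, which withholds iron from bacteria by binding their siderophores, differed by 0.94 ± 0.21, with 97 of 100 pairs in order. Padi4, the enzyme that citrullinates histones when neutrophils cast out their chromatin, lay between -0.10 and 1.53 on the rich and between -0.58 and 0.07 on the poor arrays, a difference of 1.01 ± 0.18. Ngp, neutrophilic granule protein, which is related in sequence to the cystatins, differed by 0.54 ± 0.16 with 92 pairs in order. Cd177, a surface protein of neutrophils, differed by 0.47 ± 0.12 with 94 pairs in order, and was well above background on 9 rich and 3 poor arrays. Mmp8, neutrophil collagenase, was well above background on 9 rich arrays and on 0 poor arrays. In red intensities it was 1.49-fold higher on the rich arrays (mean log2 intensity 7.15 against 6.58). These intensities were taken after loess within arrays and quantile normalization of the average of both channels between arrays. Each poor array was set at its own signal or at the lowest signal well above background, whichever is higher. The poor mean stayed at 6.58, so 1.49-fold is the measured difference and not a lower bound.

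Of the 26 granule proteins listed, 20 passed the filter on dim probes and 18 of these were higher on the rich arrays, with a median difference of 0.30. Over all features 46.8% were higher. In 7 of the 20, at least 90 of 100 pairs were in order with the rich array higher, as in 52 of all 22379 features. Mmp9, gelatinase B, differed by 0.31 ± 0.09 with 82 pairs in order. Of the primary granules, which are made at the earliest stage, little can be said. Mpo, myeloperoxidase, differed by 0.03 ± 0.05 but was well above background on only 8 of 31 arrays, so a difference may not be detectable. Elane, neutrophil elastase, was well above background on 2 of 31 arrays and was not tested, and Ltf was not measured here. A median over genes that passed the filter is a description, since a gene could pass through the rich arrays alone.

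**Figure D2:**
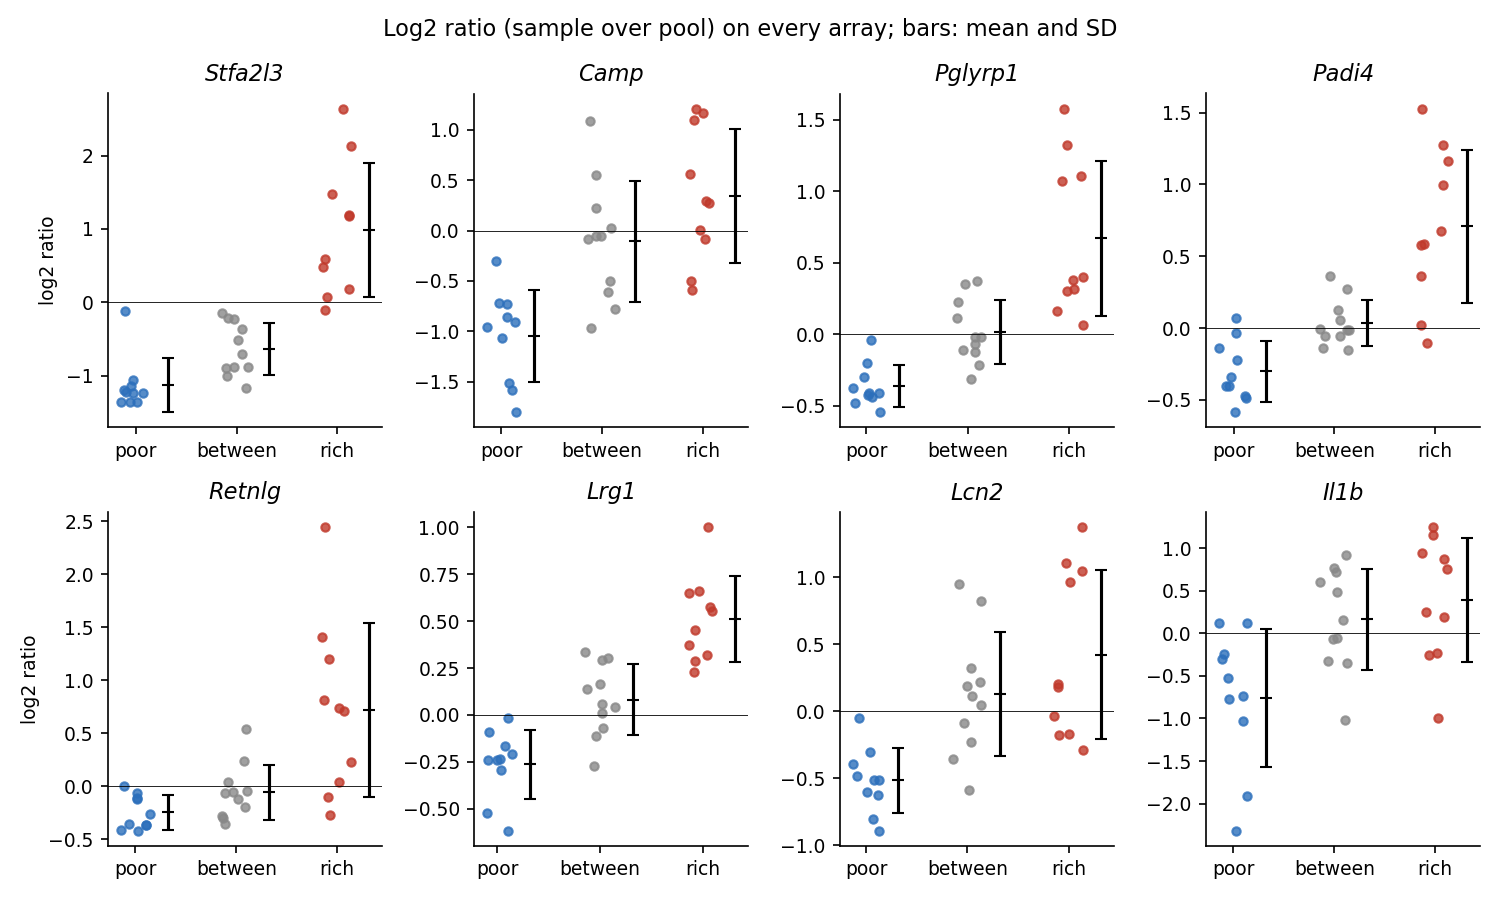
Log2 ratio of sample over pool for 8 genes on every array (points) in the poor, between and rich sets, with mean and SD beside each set. Stfa2l3, Pglyrp1 and Lrg1 do not overlap between poor and rich arrays, whereas Il1b, at -2.32 to 1.25, does.

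Lrg1, a secreted leucine-rich glycoprotein that neutrophils store and the liver makes in inflammation, was the fourth feature without overlap. It lay between 0.23 and 1.00 (median 0.50) on the rich and between -0.62 and -0.01 (median -0.24) on the poor arrays. Its difference, 0.77 ± 0.09, was smaller than that of Camp, but its spread within the sets was small. The other leading genes overlapped. Retnlg, a resistin-like secreted protein of bone marrow cells, differed by 0.97 ± 0.26 and Ifitm6, of the interferon-induced transmembrane family, by 0.91 ± 0.20. Adgrg3, an adhesion receptor of granulocytes, differed by 0.56 ± 0.10 with 99 pairs in order. Dgat2, which completes triglyceride synthesis, differed by 0.55 ± 0.13, and Ccl6, a chemokine of myeloid cells, by 0.66 ± 0.14. Atf3, a transcription factor induced by stress, differed by 0.92 ± 0.22, with 1.41 on WT replicate 7 as its highest value.

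These differences kept their direction and were larger in 2 other versions of the same arrays, for which the cause was not tested. On the scanner's own log ratios the difference was 2.59 for Csta, 2.05 for Cd177, 2.02 for Padi4, 2.01 for Retnlg, 1.76 for Ifitm6, 1.75 for Lcn2, 1.64 for Pglyrp1, 1.58 for Ngp, 1.24 for Adgrg3 and 0.91 for Dgat2. Mmp8 differed by 2.47 there, against 0.46 ± 0.14 here. In the authors' series table the values were 1.56 for Padi4, 1.51 for Csta, 1.46 for Retnlg, 1.42 for Lcn2, 1.06 for Cd177, 1.04 for Mmp8, 1.03 for Ngp, 0.98 for Adgrg3 and 0.85 for Dgat2. After scaling the arrays to one spread, the differences were instead smaller for the leading higher genes other than Camp (1.47) and Lrg1 (0.82). Stfa2l3 was at 1.82, Padi4 at 0.83, Retnlg at 0.78, Atf3 at 0.65 and Dgat2 at 0.43 there.

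**Figure D3:**
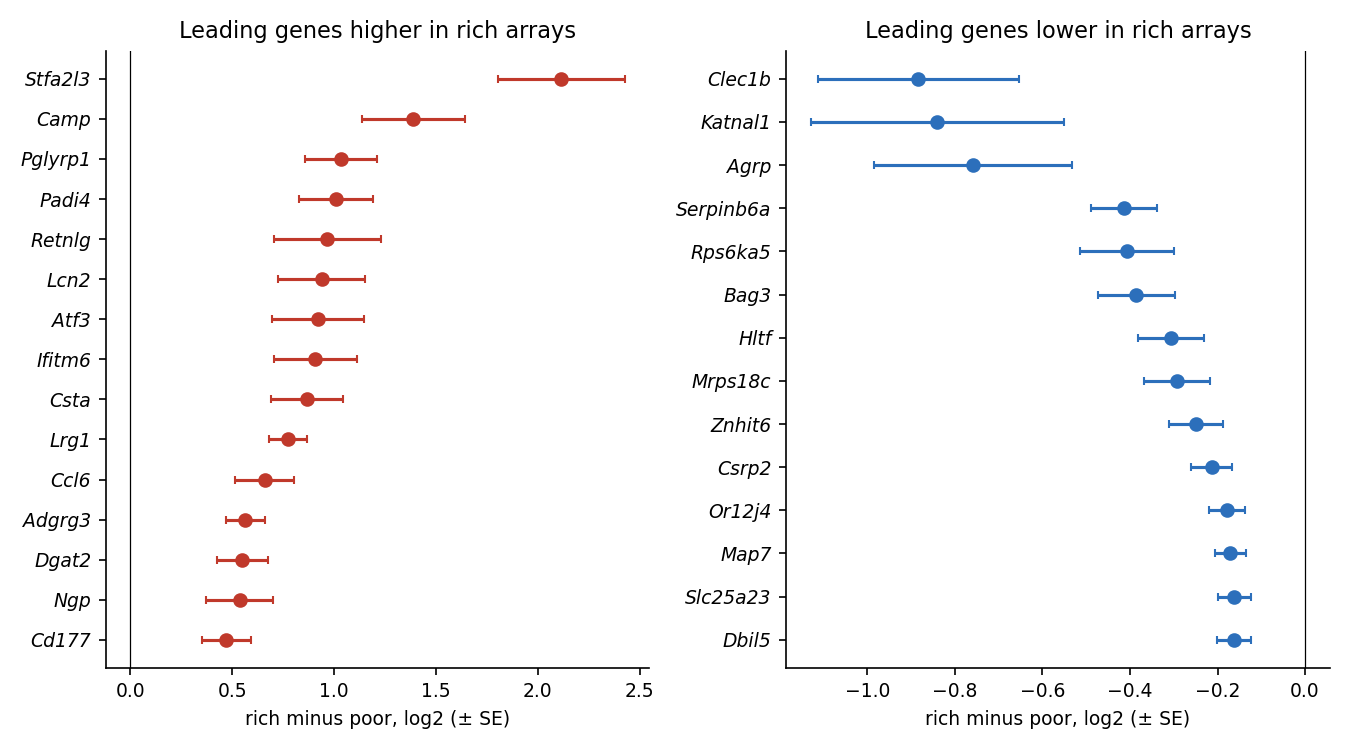
Rich minus poor difference of mean log2 ratios (points, bars SE, 10 arrays a set) for the 15 leading higher genes and the leading lower genes named in the text. The higher genes reach 2.12 for Stfa2l3, and the lower genes reach -0.88 for Clec1b.

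The listed cell-surface receptors and adhesion molecules of granulocytes differed much less than the granule genes. Of 27 listed receptors and adhesion molecules 19 were measured and 16 were higher on the rich arrays, but the median difference was 0.11. Only Fcar, the receptor for immunoglobulin A, had at least 90 pairs in order, as had 52 of all 22379 features. It was named for that after its values were seen. Fcar was well above background on 9 rich and 0 poor arrays, and was 1.25-fold higher in measured red intensities normalized as for Mmp8. Csf3r, the receptor for the growth factor that drives neutrophil production, lay between -0.24 and 0.56 on the rich and between -0.33 and 0.40 on the poor arrays, a difference of 0.11 ± 0.11. Its sets overlapped over most of their ranges. Cxcr2 and Fpr1, which guide neutrophils to chemokines and bacterial peptides, were well above background on at most 6 of 31 arrays and were not tested. The label of granulocyte content thus rests on granule and cytosolic genes and on the decoy receptor Il1r2. Most of the listed receptors that also define mature neutrophils were dim or showed little difference. The surface proteins Adgrg3 and Cd177 were, however, among the leading genes.

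The NADPH oxidase, which makes the oxidative burst of neutrophils and monocytes, had 5 of 6 measured members higher, with a median of 0.10. Cybb, its catalytic subunit, differed by 0.10 ± 0.15. Of 13 measured myeloid transcription factors 12 were higher, with a median of 0.22. Cebpb, which drives emergency granulopoiesis, differed by 0.47 ± 0.15, and Cebpa, needed for granulocyte commitment, by 0.24 ± 0.09. Of 13 measured S100 proteins and annexins other than the markers, 12 were higher with a median of 0.07, of which Anxa1, an anti-inflammatory annexin, had the largest difference, 0.26 ± 0.09.

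Markers of other blood cells moved with the split to unequal degrees. Of 14 measured monocyte genes 13 were higher on the rich arrays, with a median of 0.15. Csf1r, the receptor for the monocyte growth factor, differed by 0.10 ± 0.16, and Cd14, a co-receptor for bacterial lipopolysaccharide, by 0.36 ± 0.22. The mean level of the monocyte list ran from -0.42 to 0.32 on the rich and from -0.45 to 0.14 on the poor arrays. Of 19 measured T cell genes 2 were higher (median -0.06), of 13 B cell genes 6 (median -0.01) and of 15 genes of natural killer and cytotoxic cells 4 (median -0.08). Cd3e, of the T cell receptor complex, differed by -0.06 ± 0.08 and Ms4a1, the B cell antigen CD20, by -0.09 ± 0.18. Among eosinophil genes 3 of 10 were measured, and Prg2, the major basic protein of eosinophil granules, differed by 0.30 ± 0.08 with 92 pairs in order. Of 10 measured basophil and mast cell genes 5 were higher, and the median was -0.02.

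Platelet and red cell genes showed wider differences than those of lymphocytes. All 13 measured platelet genes were lower on the rich arrays, with a median of -0.58. Ppbp, the platelet basic protein, lay between -1.72 and 0.29 on the rich and between -0.31 and 1.19 on the poor arrays, a difference of -0.79 ± 0.27. The mean of the list ran from -1.51 to 0.45 on the rich and from -0.21 to 0.74 on the poor arrays. Its lowest value, -2.84, was on a between array. Of 19 measured erythroid genes 17 were higher, with a median of 0.59. Alas2, the first enzyme of haem synthesis in red cell precursors, lay between -1.48 and 1.51 against -3.05 to 0.52, a difference of 1.06 ± 0.47, and the list means ran from -1.15 to 0.69 against -1.68 to 0.19. Both lists overlapped between the sets far more than the granule genes did, and their part in the other differences was not tested.

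**Figure D4:**
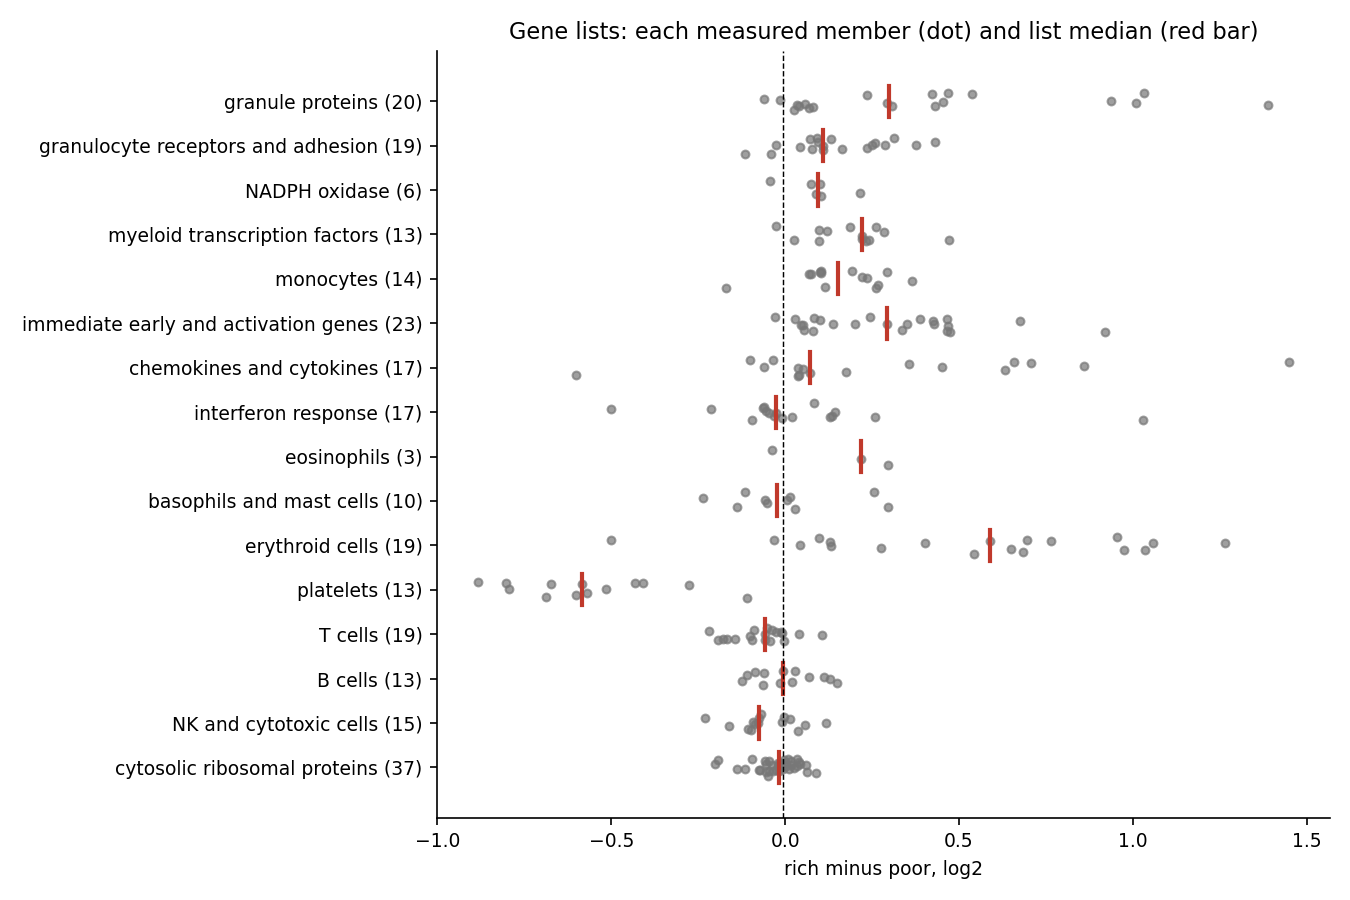
Rich minus poor difference (log2) for every measured gene of 16 lists (grey points, number in brackets) with the list median (red) and the median of all features (dashed). Granule, immediate early and erythroid genes lie mostly to the right, platelet genes to the left (median -0.58), and T cell, B cell and ribosomal genes around the dashed line.

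Activation genes were also higher on the rich arrays. Immediate early genes are transcribed within minutes of a stimulus. Of 23 measured 22 were higher, with a median of 0.29. Fos, a subunit of the AP-1 transcription factor, differed by 0.68 ± 0.19 and Junb, a partner of it, by 0.47 ± 0.16. Il1b, the inflammatory cytokine that Il1r2 captures, lay between -0.99 and 1.25 (median 0.51) on the rich and between -2.32 and 0.12 (median -0.63) on the poor arrays, a difference of 1.16 ± 0.34 with 88 pairs in order. Cxcl2, a chemokine that recruits neutrophils, lay between -0.89 and 1.59 against -3.43 to 0.64, a difference of 1.45 ± 0.51. Il1b and Cxcl2 had the largest differences of their lists, which moved little as a whole. Of 17 measured chemokines and cytokines 13 were higher, with a median of 0.07. Of 9 measured genes of the interleukin-1 family and its receptors 5 were higher, with a median of 0.01.

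CR-L replicates 2 and 6 had the lowest scores, the lowest Il1b (-1.91 and -2.32) and the lowest Cxcl2 (-2.33 and -3.43) of all arrays. Without these 2 arrays the difference was 0.82 for Il1b and 0.93 for Cxcl2, against 2.09 for Stfa2l3 and 1.24 for Camp. The median of the immediate early list was 0.21 in place of 0.29, and the count of features at least 2-fold higher was then 10 in place of 17. Scaling the arrays to one spread gave 0.76 for Il1b and 0.73 for Cxcl2, and slide as a block gave 0.95 for Cxcl2.

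Among features with a difference of at least 2-fold, some ranged widely within both sets. Slc27a2, a fatty acid transporter and acyl-CoA synthetase that is named after its values were seen, differed by 2.27 ± 0.71. It was at -3.23 on CR-L replicate 5 and between -0.22 and 0.77 on the other rich arrays, while the poor arrays ran from -4.03 to 1.57 with a median of -3.58. RT1-Bb, a rat MHC class II chain, differed by 1.79 ± 1.11 and ranged from -4.91 to 1.63 on the rich and from -5.21 to 0.38 on the poor arrays. Another RT1-Bb probe differed in the opposite direction, and the value was 4.83 after scaling the arrays to one spread and 0.82 between the 7 highest and 7 lowest arrays. Both genes overlapped between the sets, with 82 and 75 pairs in order.

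The 15 leading lower genes differed by -0.16 to -0.88, and all overlapped. Clec1b, the platelet receptor for podoplanin, led them with -0.88 ± 0.23, from -1.76 to 0.26 on the rich and from -0.34 to 0.76 on the poor arrays. Serpinb6a, an intracellular serpin that inhibits granule serine proteases, lay between -0.67 and -0.03 against -0.06 to 0.30, a difference of -0.41 ± 0.08 with 2 of 100 pairs in the higher order. Bag3, a co-chaperone of heat shock proteins, differed by -0.39 ± 0.09, and Rps6ka5, a kinase of histone H3 and CREB, by -0.41 ± 0.11. Katnal1, a katanin-like microtubule-severing protein, differed by -0.84 ± 0.29, with 2.13 on CR replicate 3 as its highest poor value. Others were Agrp (-0.76), Hltf (-0.31), Mrps18c (-0.29), Znhit6 (-0.25), Csrp2 (-0.21), Or12j4 (-0.18), Map7 (-0.17), Slc25a23 (-0.16) and Dbil5 (-0.16), and Or12j4 and Map7 were well above background on 5 and 3 rich arrays and on 8 and 9 poor arrays. On the scanner's own log ratios the difference was -1.09 for Or12j4, -0.95 for Map7, -0.77 for Slc25a23, -0.67 for Csrp2 and -0.36 for Dbil5. In the red channel alone it was -0.08 for Csrp2, -0.11 for Or12j4 and -0.0044 for Slc25a23, and in the authors' series table -0.02 for Slc25a23. Scaling the arrays to one spread gave -0.64 for Bag3 and -0.51 for Hltf, and a score from S100a8 and S100a9 alone gave -0.53 for Katnal1 and -0.16 for Mrps18c.

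The split was set beside differences within single slides, each holding up to 4 arrays. On all 6 slides that held both sets, 13 of the 15 leading higher genes were higher on the rich arrays. Retnlg (lowest slide difference -0.08) and Atf3 (-0.14) were the exceptions. Stfa2l3 differed by 0.19 to 3.20 and Camp by 0.58 to 2.61 within slides. Of the 15 leading lower genes, 9 were lower on all 6 slides. All these genes were chosen on the same arrays, so their agreement within slides is a description and not independent support. Without WT replicate 6 the differences of the leading genes moved little, with 2.24 for Stfa2l3, 1.07 for Pglyrp1 and 0.77 for Lrg1.

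The 11 arrays that lay between took no part in choosing the genes, so the slope of each feature on the score was tested there with limma. The score of these arrays spans -0.81 to 0.22. No feature passed at an adjusted p of 0.05 (0 of 22379, 0%). The smallest Benjamini-Hochberg adjusted p was 0.877, and 889 features, 3.97% of those with a slope, had an unadjusted p under 0.05. The score and the features came from the same arrays, so technical variation of an array can enter both.

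Of the 15 leading higher genes, 13 had positive slopes, as had 47.4% of all features. This is a description and not independent support, since the genes were chosen by their relation to the same score and vary together. Of them, 5 had an unadjusted limma p under 0.05. These were Stfa2l3 with 0.80 ± 0.23 (log2 per log2 unit of score, SE, p = 0.00401), Pglyrp1 with 0.52 ± 0.14 (p = 0.00331), Padi4 with 0.37 ± 0.12 (p = 0.00801), Retnlg with 0.46 ± 0.20 (p = 0.0360) and Adgrg3 with 0.30 ± 0.12 (p = 0.0238). All 5 had a limma adjusted p of 0.996, so none passed the correction over all features. Lrg1 (-0.07 ± 0.18) and Ccl6 (-0.50 ± 0.30) were the 2 with negative slopes. Il1b (-0.32 ± 0.52) and Csf3r (-0.34 ± 0.18) had negative slopes too.

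Lists behaved unequally on the between arrays. Granule proteins had 13 of 20 positive slopes, and immediate early genes 16 of 23. Other myeloid lists had fewer, with 7 of 19 granulocyte receptors, 0 of 6 NADPH oxidase genes, 2 of 13 myeloid transcription factors and 3 of 14 monocyte genes positive. Platelet genes had 0 of 13 and erythroid genes 2 of 19, so the erythroid genes, higher on the rich arrays, did not follow the score here. Of the 15 leading lower genes 6 had positive slopes. T cell genes had 16 of 19 and genes of natural killer and cytotoxic cells 13 of 15 positive slopes, opposite to their direction between rich and poor arrays.

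**Figure D5:**
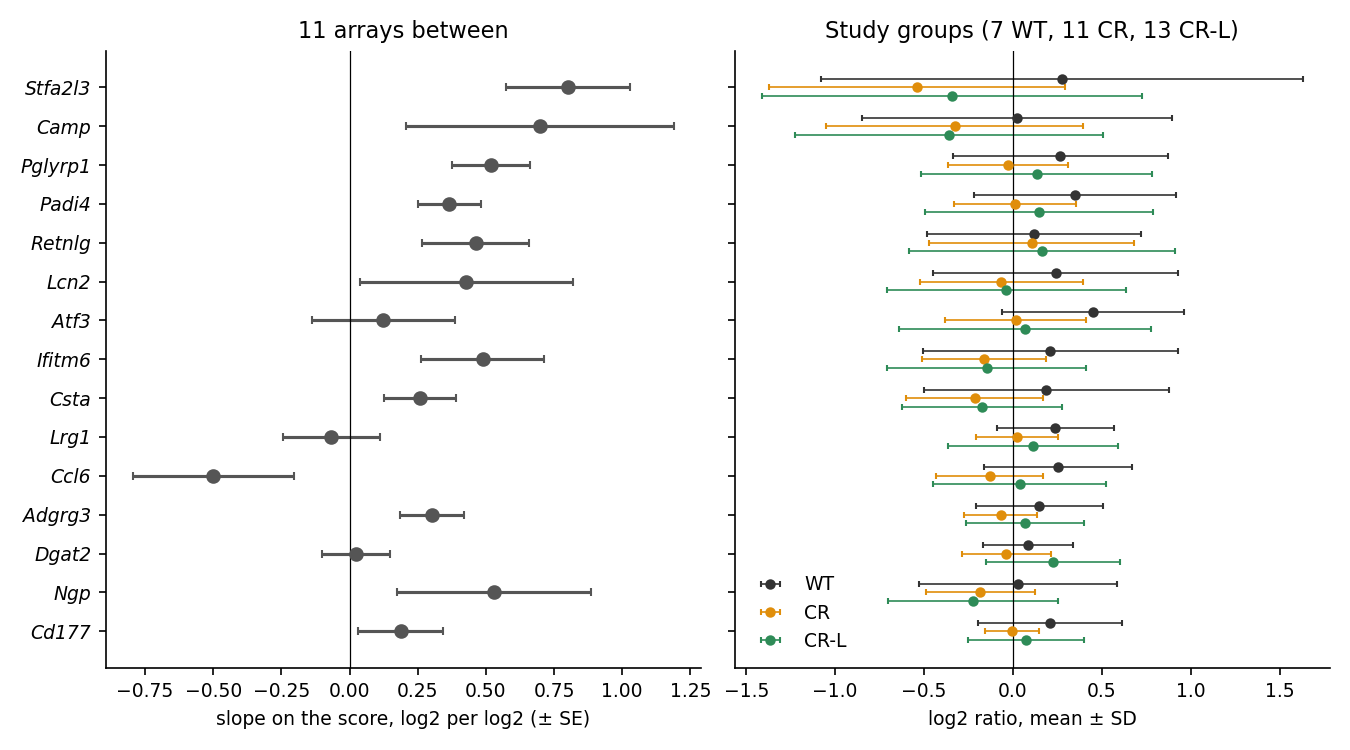
Left, slope of the log2 ratio on the score over the 11 between arrays (points, bars SE) for the 15 leading higher genes. Right, their mean log2 ratio and SD in 7 WT, 11 CR and 13 CR-L samples. Slopes are positive except for Lrg1 and Ccl6, and the 3 study groups overlap for every gene.

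Study groups come from the titles and took no part in choosing the arrays, although the score was not spread evenly over them. Over all 22383 features and 31 arrays, limma called 106 (0.474%) between CR and WT, 791 (3.53%) between CR-L and WT, and 0 (0%) between CR-L and CR at an adjusted p of 0.05. In the last contrast 523 features had an unadjusted p under 0.05. None of the 30 leading genes and none of the 4 markers was called in any contrast. With WT replicate 6 left out, 27 and 526 features were called against WT, and again 0 of the leading genes. On the values of the authors' series, 0 features were called between CR and WT and 501 between CR-L and WT.

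All 15 leading higher genes had a lower mean in CR than in WT, and 13 of 15 in CR-L, but within the spread of the groups. Stfa2l3 was 0.82 ± 0.48 lower in CR and 0.62 ± 0.47 lower in CR-L (limma adjusted p = 0.520 and 0.567). S100a9 was -0.71 ± 0.59 and -0.82 ± 0.57 from WT (limma adjusted p = 0.680 and 0.518), and Hp -0.31 ± 0.12 and -0.26 ± 0.12 (limma adjusted p = 0.268 and 0.266). These 15 genes and the markers vary together across arrays, so their common direction is not 15 separate observations. With 4 of 7 WT arrays in the rich set and 1 in the poor set, group and score overlap in part. With the score as a covariate, 38 features were called between CR and WT in place of 106, and 756 between CR-L and WT in place of 791.

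Among the listed genes, 7 of 14 measured NF-kB targets and inhibitors were called between CR-L and WT, 6 lower and 1 higher in CR-L, against 3.53% of all features. Without WT replicate 6 the count was 2 of 14, Birc3 (limma adjusted p = 0.0349) and Traf1 (limma adjusted p = 0.0471), against 2.35% of all features. Most of these calls thus did not pass the threshold without that array. Nfkbiz, an inducible regulator of NF-kB, was -0.73 ± 0.19 from WT (limma adjusted p = 0.0259) and 0.63 ± 0.22 higher on the rich arrays. Nfkbia, the inhibitor that NF-kB induces to switch itself off, was -0.64 ± 0.17 from WT (limma adjusted p = 0.0265) and 0.49 ± 0.18 higher on the rich arrays. Without WT replicate 6 their differences from WT were -0.68 and -0.60, and their limma adjusted p was 0.0682 and 0.0670, above the threshold. Of the 20 granule proteins and 19 granulocyte receptors 0 were called in either contrast against WT, where 0.474% and 3.53% of all features were called, so few calls would be met among so few genes.

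Promoters of the leading genes were searched for short sequence matches because these genes differed together. RefSeq sequences of the GRCr8 build held 12 of the 15, and the window was the 250 bases before the start. TTGCNNAA, a form of the site of the C/EBP factors, occurred on either strand in 3 of the 12 and in 9.22% of 33465 promoters. GAGGAAG, a core of the site of PU.1, occurred in 2 of the 12 and in 10.2% of all. The 2 motifs do not share a core and no match overlapped another. The promoters of Stfa2l3 (chr11:78093485-78093734), Pglyrp1 (chr1:87659613-87659862) and Ngp (chr8:119272355-119272604), all on the plus strand, are shown for their matches, in capitals. Lcn2 held the third C/EBP match. Camp, Lrg1 and S100a9 held neither in this window.
Stfa2l3: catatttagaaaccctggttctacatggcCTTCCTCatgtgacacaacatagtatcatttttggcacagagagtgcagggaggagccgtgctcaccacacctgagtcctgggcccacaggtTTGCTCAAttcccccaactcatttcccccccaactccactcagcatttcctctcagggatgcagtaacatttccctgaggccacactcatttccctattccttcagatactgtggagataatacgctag
Pglyrp1: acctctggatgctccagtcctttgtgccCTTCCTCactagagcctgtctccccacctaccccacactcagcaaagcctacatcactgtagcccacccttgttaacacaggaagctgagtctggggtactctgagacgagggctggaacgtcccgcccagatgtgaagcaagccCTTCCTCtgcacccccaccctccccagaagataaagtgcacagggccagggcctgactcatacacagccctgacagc
Ngp: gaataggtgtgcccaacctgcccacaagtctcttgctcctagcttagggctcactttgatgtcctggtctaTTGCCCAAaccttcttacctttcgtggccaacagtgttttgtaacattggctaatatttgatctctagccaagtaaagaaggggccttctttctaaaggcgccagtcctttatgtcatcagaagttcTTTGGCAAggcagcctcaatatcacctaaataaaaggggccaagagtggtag
In Stfa2l3 a TTGCNNAA match begins 129 bases before the start and a GAGGAAG match lies on the minus strand. In Pglyrp1 both matches are of GAGGAAG on the minus strand, and in Ngp both are of TTGCNNAA, one of them on the minus strand. A match is a run of letters and was not tested as a binding site.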

How the data were processed

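RNA of 31 samples was hybridised to Agilent 2-colour arrays, 1 per sample (7 WT, 11 CR, 13 CR-L). Per the labels, red (Cy5) is the sample and green (Cy3) the pool. The authors deposited scanner files whose spot intensity and log10 ratio were made, as the submitters' processing notes name it, with Agilent Feature Extraction 10.7.3.1, and a series table of log2 values that tracked the red channel. Its normalization is not given in the sources used here.

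The score used the deposited log10 ratio, multiplied into log2. For all else, mean intensities were corrected in limma 3.58.1 (R 4.3.3) by normexp on the median local background with an offset of 50, then by loess within each array. Of 45018 spots, 1639 controls and 5483 outlier values (over all arrays) were left out. Probes well above background in red on at least 7 arrays were kept, and the brightest stood for a symbol. This gave 22383 features.

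Rich minus poor differences are limma estimates with no test. Slopes over the 11 between arrays and study group contrasts are two-sided limma tests (lmFit, eBayes) with Benjamini-Hochberg adjustment, checked on simulated data. The arrays, the 26 gene lists and the rule for named genes were chosen with earlier results of these data known. The rule took the 15 largest differences per direction among genes with an established symbol, first those without overlap and then those with at least 90 pairs in order, up to 4 genes of each list with the largest difference, and a short set of blood cell markers such as Csf3r, Mpo and Cd3e. 1 leading lower gene is counted but not reported here by name. Of 467 listed genes 393 had a tested feature. Precision is limited by the number of arrays.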

Additional observations from a re-analysis of the deposited data

Results flagged for a closer look

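In 113 sets of values (the leading genes, list means and score on the WT, rich and poor arrays), 8 held an array far from the others by Dixon's test, of which chance gives about 1 in 20. Among poor arrays, CR-L replicate 12 had Stfa2l3 at -0.13, with the others between -1.37 and -1.06. Without it the Stfa2l3 difference was 2.23. On CR-L replicate 6, Ccl6 was at -1.06 (others -0.44 to 0.05). On CR replicate 3, Katnal1 was at 2.13 (others -0.58 to 0.85) and Bag3 at 0.65 (others -0.19 to 0.17).

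Among rich arrays, WT replicate 7 had Atf3 at 1.41 (others -0.10 to 0.69) and CR-L replicate 1 had Mrps18c at 0.094 (others -0.52 to -0.21). Among WT arrays, replicate 3 had Ngp at 1.18 (others -0.57 to 0.01) and replicate 5 had Mrps18c at 0.12 (others -0.56 to -0.27).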

How the results depend on the processing

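All 30 leading genes kept the direction of their difference under all 13 alternatives. The genes were chosen on these arrays and the alternatives reuse them, so a change of direction was unlikely from the start. The counts of features at least 2-fold higher (17), 2-fold lower (0), higher without overlap (4) and lower without overlap (0) moved with the processing, and the cause was not tested. On the scanner's log ratios they were 62, 24, 9 and 0, and after scaling between arrays 36, 4, 10 and 0. In the authors' series table they were 29, 0, 15 and 1. In the red channel alone, and with no filter on dim probes, 1 feature was lower without overlap. With slide as a block, 27 features were higher and 2 lower by 2-fold. The 7 highest against the 7 lowest arrays gave 28, 0, 28 and 10. With fewer arrays in a set no overlap is easier to meet, here and where arrays were left out. Those counts without overlap are thus not comparable with the main ones. A score from S100a8 and S100a9 gave 30, 1, 2 and 0, and one from Hp and Il1r2 gave 25, 18, 3 and 2. Chosen after seeing the data were leaving out WT replicate 6 or CR-L replicate 1 (12 to 19 features higher by 2-fold, 4 to 6 higher and 0 to 1 lower without overlap), leaving out CR-L replicates 2 and 6 (10 higher) and using 1 S100a8 probe.

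Over the between arrays 0 features passed under every alternative, with a smallest adjusted p of 0.201 to 1.00 when each array was left out. Between CR and WT (106), 70 features were called with slide as a block, 66 on the scanner's log ratios, 38 with the score as covariate, 27 without WT replicate 6 and 0 in the authors' series table. Between CR-L and WT (791) the last 2 gave 526 and 501. With the replicate block, 243 and 930 were called, and 0 between CR-L and CR. The numbers did not pair the arrays (correlations of deviations from -0.42 to 0.45 over 25 pairs, and 3 of 31 arrays matched their own number best). Signal near the background limits Il1r2, Csta, Cd177, Mmp8 and the unnamed stefin probe A_44_P251086.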
